A study of Mus musculus with 2 samples.

Results

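The genes described here make or sense prostaglandins and leukotrienes in epididymal white adipose tissue, a visceral fat depot that lies along the epididymis. The set holds 9 genes: the cyclooxygenases Ptgs1 and Ptgs2, the prostanoid synthases Ptges, Ptgds and Ptgis, the prostaglandin E2 receptors Ptger3 and Ptger4, and the leukotriene genes Alox5 and Alox5ap. Members were found as every probe set annotated with exactly 1 gene symbol that is one of these names. That gave 14 probe sets of 8 genes, out of 45037 probe sets in all, and Ptgs1 was not analysed here. Tissue came from male C57BL/6 mice that ate regular food until 9 weeks of age. The first group is 1 sample from a normal chow diet, and the second is 1 sample from a high-fat diet for 7 weeks. No duration was listed for the chow diet. RNA of each sample was hybridised to 1 Affymetrix mouse array. Each diet therefore has 1 array and no replicate, so the spread between animals is unknown, no test was possible, and "higher" and "lower" describe these 2 samples.

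Prostaglandins and leukotrienes are short-lived lipid signals made from arachidonic acid that a phospholipase has cut from membranes. Cyclooxygenases turn the acid into a common precursor, terminal synthases turn that into prostaglandin E2, prostaglandin D2 or prostacyclin, and a separate lipoxygenase route leads to leukotrienes. In white fat, prostaglandin E2 made within the tissue is known to act on the receptor encoded by Ptger3, which lowers cyclic AMP and restrains lipolysis.

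Both receptor genes of the set were higher on high fat, Ptger3 by 2.54-fold and Ptger4 by 1.43-fold. The 5 synthesis genes above background on both arrays were lower, by 1.06-fold to 1.56-fold in the probe set that stands for each gene, where 52.9% of all genes were lower. For Ptgis and Alox5ap this was less than the pooled scatter between probe sets of one gene. These are values of bulk tissue, in which fewer cells of a type and less RNA per cell cannot be told apart. A probe set was taken as above background at or over the 40th percentile of its array, which was an intensity of 28.6 for chow and 27.9 for high fat and is called the floor here. Of the 14 probe sets, 9 reached the floor on both arrays, 3 on 1 array only and 2 on neither. These covered 7 genes on both arrays, while Ptgs2 passed on the chow array alone. A gene with several such probe sets was represented by that of highest mean log2 intensity. Differences are high-fat diet minus chow in log2 units.

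Against all genes, 1 of the 7 members was 2-fold or more higher, where 0.928% of the 12496 genes above the floor on both arrays were, and 0 were 2-fold or more lower, where 0.936% were. At 1.5-fold or more, 1 member was higher (4.93% of all genes) and 2 were lower (5.31% of all genes). The 2 lower members, Ptgds and Alox5, lie close to that threshold. In sign alone, 5 of 7 members were lower, beside 52.9% of all genes, and 2 were higher, beside 46.8%. The median difference of the 7 was -0.29, and that of all 12496 genes was -0.02. The only available yardstick of error was the scatter of probe sets of one gene around their gene's mean difference. Its pooled SD was 0.32 log2 units over 5196 genes, and it was 0.38 where the mean intensity was under 100. It holds no difference between animals.

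**Figure D1:**
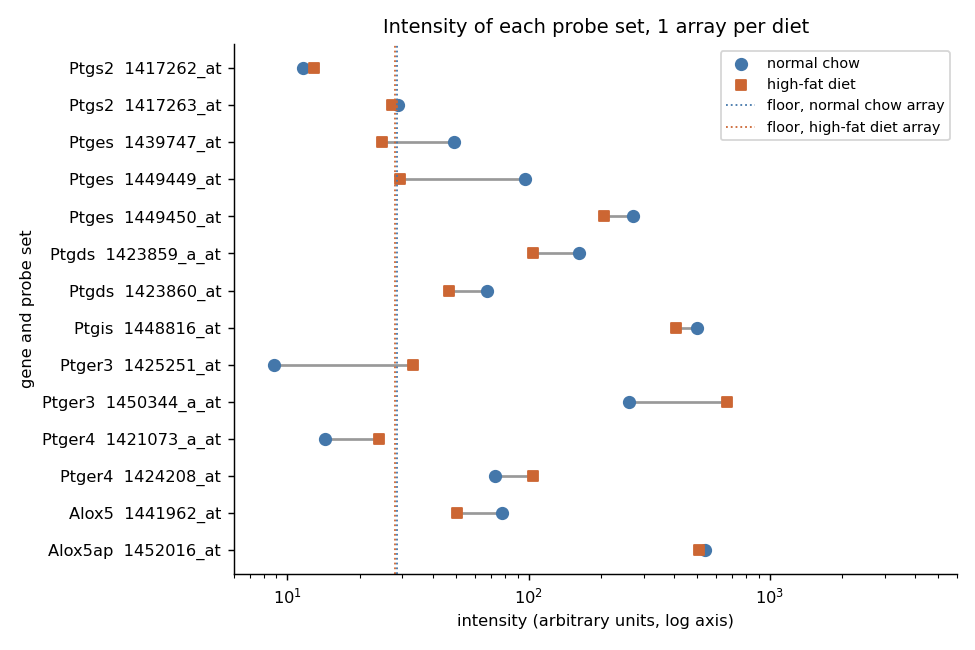
Intensity of the 14 probe sets of the 8 genes (log axis, arbitrary units) for the normal chow sample (circles) and the high-fat diet sample (squares), with dotted lines at each array's floor of 28.6 and 27.9. All 4 probe sets of Ptger3 and Ptger4 lie further right on high fat, and the probe sets of Ptges, Ptgds, Ptgis, Alox5 and Alox5ap lie further left.

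Ptger3 encodes a prostaglandin E2 receptor that couples to an inhibitory G protein. Its probe set 1450344_a_at, whose suffix marks probes shared by several transcripts of the gene, read 261 on chow and 661.9 on high fat, a difference of 1.34, or 4.23 times the probe-set SD. This put Ptger3 at place 51 from the top among 14066 measured genes. The other probe set, 1425251_at, read 8.8 on chow, under the floor, and 33.1 on high fat, just over it. That is at least 1.16-fold higher, so it shares the direction and bounds the size only weakly. The 2-fold call rests on the first probe set: with the mean of both the difference was 0.78, and with the smaller one alone it was 0.21. Both of these are lower bounds, because the chow value of 1425251_at was raised to the floor.

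Ptger4 encodes a prostaglandin E2 receptor that raises cyclic AMP, the opposite coupling to that of Ptger3. Its probe set 1424208_at read 72.9 on chow and 104.3 on high fat, a difference of 0.52, or 1.63 times the pooled probe-set SD and 1.37 times the SD for mean intensities under 100. Of all measured genes, 7.36% were at least as far up. The other probe set, 1421073_a_at, lay under the floor in both samples, at 14.3 and 24, which gives no fold. The higher signal on high fat was thus well beyond the probe scatter for Ptger3 and less so for Ptger4.

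The sequences before the starts of both receptor genes and of Ptges are shown because Ptger3 and Ptges had the largest difference in either direction in a single probe set, and Ptger4 is the other receptor. Each runs 5′ to 3′ on the gene's strand, from the RefSeq promoter table of build GRCm38.p6. Capitals mark matches to the GC box (CCGCCC or its reverse complement GGGCGG) and the CCAAT box (CCAAT or ATTGG). Ptger3 lies at chr3:157566626-157566820 on the + strand, and its stretch ends where the annotated gene begins. Ptger4 lies at chr15:5244188-5244437 on the - strand. Ptges lies at chr2:30903298-30903547 on the - strand, before the start used in the table and inside the gene's full annotated span.
Ptger3: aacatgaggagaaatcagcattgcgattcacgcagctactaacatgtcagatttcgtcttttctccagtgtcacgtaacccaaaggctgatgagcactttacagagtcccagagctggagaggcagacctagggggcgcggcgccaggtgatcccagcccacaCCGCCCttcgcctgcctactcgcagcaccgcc
Ptger4: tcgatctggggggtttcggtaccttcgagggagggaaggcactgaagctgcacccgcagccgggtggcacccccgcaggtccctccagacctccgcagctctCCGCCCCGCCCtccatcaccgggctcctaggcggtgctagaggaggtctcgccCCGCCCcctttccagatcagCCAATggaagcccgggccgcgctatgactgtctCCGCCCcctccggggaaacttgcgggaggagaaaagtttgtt
Ptges: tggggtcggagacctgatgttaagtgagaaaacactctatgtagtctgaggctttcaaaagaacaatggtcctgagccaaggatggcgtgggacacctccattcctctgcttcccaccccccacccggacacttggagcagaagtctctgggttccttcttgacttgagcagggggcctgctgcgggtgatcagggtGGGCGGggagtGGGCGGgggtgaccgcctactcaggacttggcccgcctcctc

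Of the 9 genes, 7 had an entry in this table. The 250 bases before the start were searched on both strands for the GC box, the CCAAT box, the TATA box (TATAAA), the AP-1 site (TGACTCA), the cyclic AMP response element (TGACGTCA) and the E box (CACGTG). A GC box was found in 5 of the 7, those of Ptgs2, Ptges, Ptger3, Ptger4 and Alox5, and in 32.7% of all 32841 promoters. Ptger4 held 4 GC boxes, 2 of them overlapping, Ptger3 held 3, of which 1 falls in the letters shown, and Ptges held 2. Ptger4 alone of the 7 had a CCAAT box, present in 33.9% of all promoters, and Ptgds alone had an AP-1 site, present in 4.46%. None of the 7 held the TATA box, the cyclic AMP response element or the E box in this window, beside 12.4%, 1.55% and 6.02% of all promoters. The 2 receptor windows had more CG pairs, 21 for Ptger3 and 19 for Ptger4, than the 8 of Ptges. The median promoter has 6. The count of Ptger3 is over its full 250 bases, which run past the annotated gene start at the end of the letters shown. The windows of Ptgs1 and Ptgds, like that of Ptges, lie inside the gene's full annotated span. GC boxes thus occur upstream of genes that were higher and of genes that were lower. A match is a string of letters and no evidence of binding.

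Ptges encodes the microsomal synthase that makes prostaglandin E2 and is inducible in inflammation. All 3 of its probe sets were lower on high fat, by clearly different amounts. The probe set 1449450_at read 270.9 on chow and 205.5 on high fat, a difference of -0.40. The probe set 1449449_at read 96.3 and 29.3, a difference of -1.72 that ends just over the floor. The probe set 1439747_at read 49 and 24.6, the latter under the floor, so it was at least 1.76-fold lower. The direction was shared while the size was not: the gap of 1.32 between the 2 probe sets that reached the floor in both samples was matched or passed by 2.00% of the 5196 genes with several such probe sets, whose median gap was 0.35. With the mean of its 3 probe sets, the difference of Ptges was -0.98, a bound because 1439747_at ended under the floor.

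Ptgds encodes the lipocalin-type synthase of prostaglandin D2. Its probe set 1423859_a_at read 162.4 on chow and 104.1 on high fat, a difference of -0.64. Its other probe set, 1423860_at, read 67.1 and 46.6, a difference of -0.53. These probe sets agreed within 0.12 log2 units, and 5.07% of all measured genes were at least as far down as Ptgds. Ptgis, the synthase of prostacyclin, a vasodilator, read 500.6 and 409.9 in its only probe set. This difference of -0.29 is smaller than the pooled probe-set SD and larger than the SD of 0.24 at mean intensities of 400 or more.

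Ptgs2 encodes the inducible cyclooxygenase. Its probe set 1417263_at read 28.7 on chow and 27.1 on high fat, and 1417262_at read 11.6 and 12.9. Apart from 28.7, which is barely over the floor, these values lie under it, so no fold is given. Whether Ptgs2 differed between the diets was not detectable at this signal.

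Alox5, the lipoxygenase that starts leukotriene synthesis, read 77.3 on chow and 50.7 on high fat in its only probe set. The difference was -0.61, or 1.52-fold lower, and 5.77% of measured genes were at least as far down. Alox5ap encodes the membrane protein that hands arachidonic acid to that enzyme. It read 540 and 509.9, a difference of -0.08 that is well within the probe-set SD. The pair of genes acting in one step thus did not show the same size of difference, and the gap between them was not tested.

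**Figure D2:**
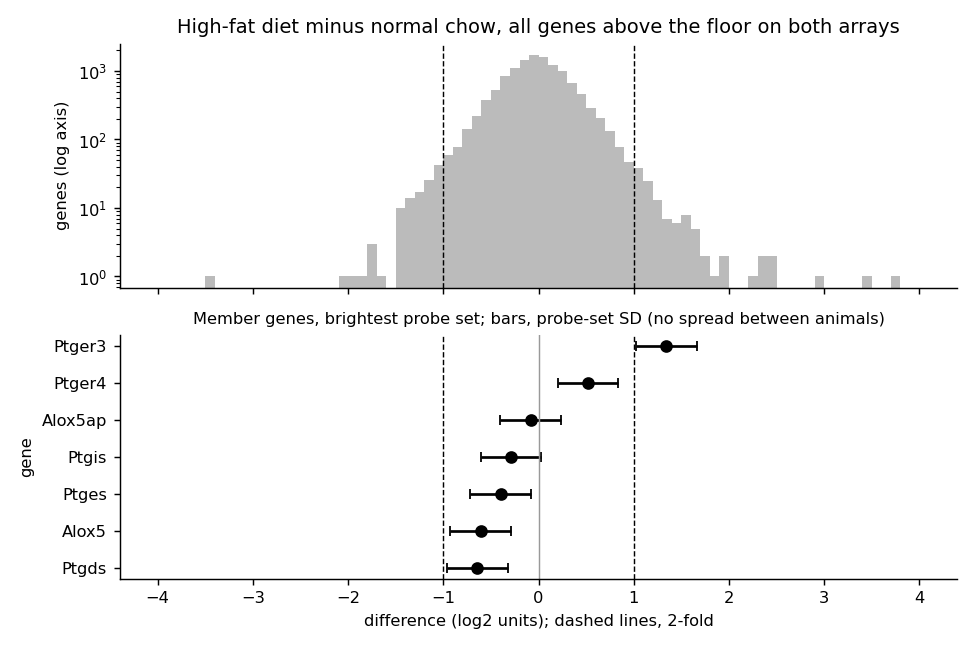
Top, number of genes (log axis) by their difference, high-fat diet minus chow in log2 units, for the 12496 genes above the floor on both arrays. Bottom, the 7 member genes on the same axis, with bars of 1 probe-set SD (0.32), which holds no spread between animals; Ptger3 alone lies beyond the dashed 2-fold line, at 1.34.

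The other genes of the pathway were taken from a list of 51 by role, of which 38 were above the floor on both arrays. Of these 18 were higher and 20 lower, with a median of -0.09. At 1.5-fold or more 7 were higher and 6 lower, or 18.4% and 15.8% of the 38, beside 4.93% and 5.31% of all genes. Those shares of all genes were not matched for intensity. Several of the differing genes, among them Alox15, Aloxe3, Alox12e and Cysltr1, had mean intensities under 100. There the probe-set SD was 0.38, against 0.24 at 400 or more. The list was chosen with earlier results of these data known. Prxl2b, which encodes a synthase of prostaglandin F2-alpha, was the furthest up of the 38. It went from 653.9 to 1347.9 and was 2.06-fold higher, against the direction of Ptges and Ptgds. Cbr3, a carbonyl reductase, was 1.54-fold lower. Ptges2, another prostaglandin E synthase, read 105.8 and 80.2, a difference of -0.40, and Tbxas1, the thromboxane synthase, read 88.9 and 68.2, a difference of -0.38. Hpgds, the haematopoietic synthase of prostaglandin D2, stayed under the floor in both samples, at 28.5 and 22.3. Of the 8 prostanoid synthesis genes above the floor on both arrays, Ptges, Ptgds and Ptgis included, Prxl2b alone was higher. Of all genes 46.8% were higher and 52.9% lower. Among the lower synthesis genes, Cbr1 differed by -0.06 and Ptgis by -0.29, both less than the pooled probe-set SD of 0.32.

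Upstream, Pla2g4a, the cytosolic phospholipase A2 that releases arachidonic acid, differed by 0.13. Pla2g2e, a secreted phospholipase A2, reached the floor on high fat alone, at 148.7 against 13.5, and was at least 2.38 log2 units higher. That bound moves with the floor, to 1.30 at the 60th percentile and 3.46 at the 20th. Pla2g2d, another secreted form, was 1.53-fold lower with its other probe set at -0.63, and Pla2g7, which degrades platelet-activating factor, was 1.55-fold lower. Downstream, Hpgd, which inactivates prostaglandins, differed by 0.04 in one probe set and -0.45 in the other, and Ptgr1, a reductase of prostaglandin and leukotriene breakdown, was 1.52-fold higher.

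Among the other prostanoid receptors, Ptgfr, the receptor of prostaglandin F2-alpha, read 30.4 on chow, just over the floor, and 57.8 on high fat. That is 1.90-fold higher, with 0.38 in its other measured probe set, and 2 of its 5 probe sets were measured. Ptger2, which like Ptger4 raises cyclic AMP, read 28.7 and 43.1, a difference of 0.59 from a chow value at the floor. Ptgdr differed by -0.44, Tbxa2r by -0.22 and Ptgir by -0.21, while Ptger1 and Ptgdr2 were under the floor on both arrays. Of the 4 prostaglandin E2 receptor genes 3 were measured, Ptger3 and Ptger4 included, and all 3 were higher, beside 46.8% of all genes. Of all 7 prostanoid receptors above the floor on both arrays, these members included, 4 were higher and 3 lower.

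In the leukotriene branch, Ltc4s, which makes the first cysteinyl leukotriene, read 640.3 and 1089.6, 1.70-fold higher, opposite in sign to Alox5. Ggt5, which trims that product, was 2.01-fold lower in a probe set whose suffix marks possible matches to other genes, with -0.48 and -0.42 in its others. Lta4h, which makes leukotriene B4, differed by 0.15 in one probe set and -0.28 in another. Cysltr1, a receptor of cysteinyl leukotrienes, was 1.53-fold higher, with 0.77 in its other probe set, and Cysltr2 differed by 0.36. Ltb4r1, a receptor of leukotriene B4, was under the floor on both arrays. Of other lipoxygenases, Alox15 was 1.84-fold and Aloxe3 1.57-fold lower, and Alox12e was 1.66-fold higher.

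By list, with the members left out, 4 of the 5 other prostanoid synthesis genes above the floor on both arrays were lower (median -0.38), as were 4 of the 6 other leukotriene synthesis genes (median -0.38). In the latter list Mgst3, a glutathione transferase, counts as lower at -0.40 although its other probe set differed by 0.38. Of the 5 other prostanoid receptors 2 were higher and 3 lower (median -0.21), so they had no common direction. At 1.5-fold or more 2 of them were higher and 0 lower. The 4 leukotriene and lipoxin receptors, chemerin receptor included, were higher (median 0.28), although Cmklr1, the chemerin receptor, differed by 0.15 in one probe set and -0.55 in the other. Over all 12496 genes 52.9% were lower and 46.8% higher.

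**Figure D3:**
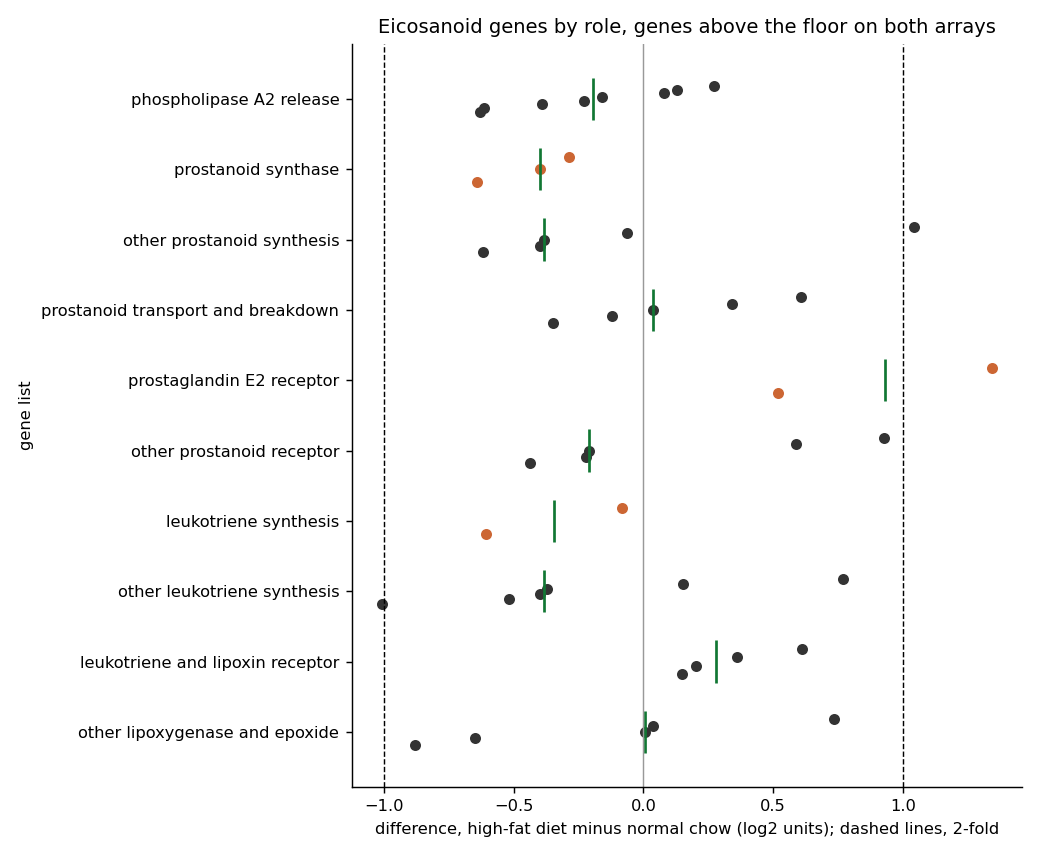
Difference of each gene above the floor on both arrays, high-fat diet minus chow in log2 units, by role; coloured points are the 7 member genes, dark points the 38 other genes of the pathway, short vertical lines the median of a list and dashed lines 2-fold. Ptger3 is furthest right at 1.34. The other prostanoid receptors have a median of -0.21 and the leukotriene and lipoxin receptors one of 0.28, and the lists of synthesis genes have medians between -0.40 and -0.35.

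A fat pad holds many cell types. Fat cell markers were well above the floor on both arrays, with Adipoq, Fabp4, Cidec and Retn between 5143.1 and 11559.7, as the tissue label says. The 5 measured adipocyte markers had a median of 0.11 and summed to 34130.3 on chow and 37095.1 on high fat. Of these, Lep moved furthest, from 2001.2 to 3099.8, a difference of 0.63. The part of fat cell content in the difference of Ptger3 was not tested.

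Mesothelial markers, from the lining of the pad, were lower in 5 of 7 cases, beside 52.9% of all genes. Their median was -0.70 and their sum 1531.6 on chow and 1119.6 on high fat. The 2 higher ones were Msln at 0.45 and Krt8 at 0.34, and the other probe sets of Krt8 differed by -0.24 and 0.15. Smooth muscle markers had a median of -0.31, with Myh11 at -1.07, Tagln at -0.95, Acta2 at 0.34 and Des at 0.58. The other measured probe set of Des differed by 2.35. The smooth muscle markers summed to 2048.7 on chow and 2217.4 on high fat. Ptgis is well known from blood vessels, and endothelial markers had a median of 0.05 and a sum of 1647.9 and 1549.3. The part of these cell types in the lower signal of Ptges, Ptgds and Ptgis was not tested.

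Beside Alox5, Alox5ap and Ltc4s, which blood-derived cells express, 6 of 6 macrophage markers were measured, 3 higher and 3 lower, with a median of -0.18 and a sum of 3894.3 on chow and 3548 on high fat. Of 7 mast cell markers, 5 were above the floor on both arrays with a median of -0.09 and 2 on chow only, and the 7 summed to 526.2 and 422.8. Among neutrophil markers Cxcr2 and Elane were under the floor on both arrays, S100a9 was above it on chow only, and the 4 measured ones summed to 188 and 331.1. S100a8 alone went from 39.7 to 191.3, and the other 3 summed to 148.3 and 139.8, with Csf3r at 0.44 and Mpo at -0.05. The median was 0.26 for the 3 measured markers of T and NK cells, while Cd3d and Cd4 were under the floor. Among them, Cd8a differed by 0.30 in one probe set and -0.56 in the other. For the 2 B cell markers above the floor on both arrays the median was 0.10. A further B cell marker, Cd79b, went from 50.1 on chow to 23.2, under the floor. With its bound included the B cell median was -0.07, and the 3 measured markers summed to 170.9 on chow and 148.9 on high fat. Of the epididymis markers, which bear on Ptgds because that organ expresses it, Lcn5 was under the floor at 4.7 and 3.5, and the 4 measured ones summed to 207.2 and 190.4. The 3 above the floor on both arrays were all lower (median -0.24), beside 52.9% of all genes. Lcn8 differed by -0.74, from 55.1 to 32.9. Rnase10 differed by -0.24 and Gpx5 by -0.19, both less than the pooled probe-set SD of 0.32. Adam7 went from 13.9, under the floor, to 38.4. The part of any of these cells in the members' differences was not tested.

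**Figure D4:**
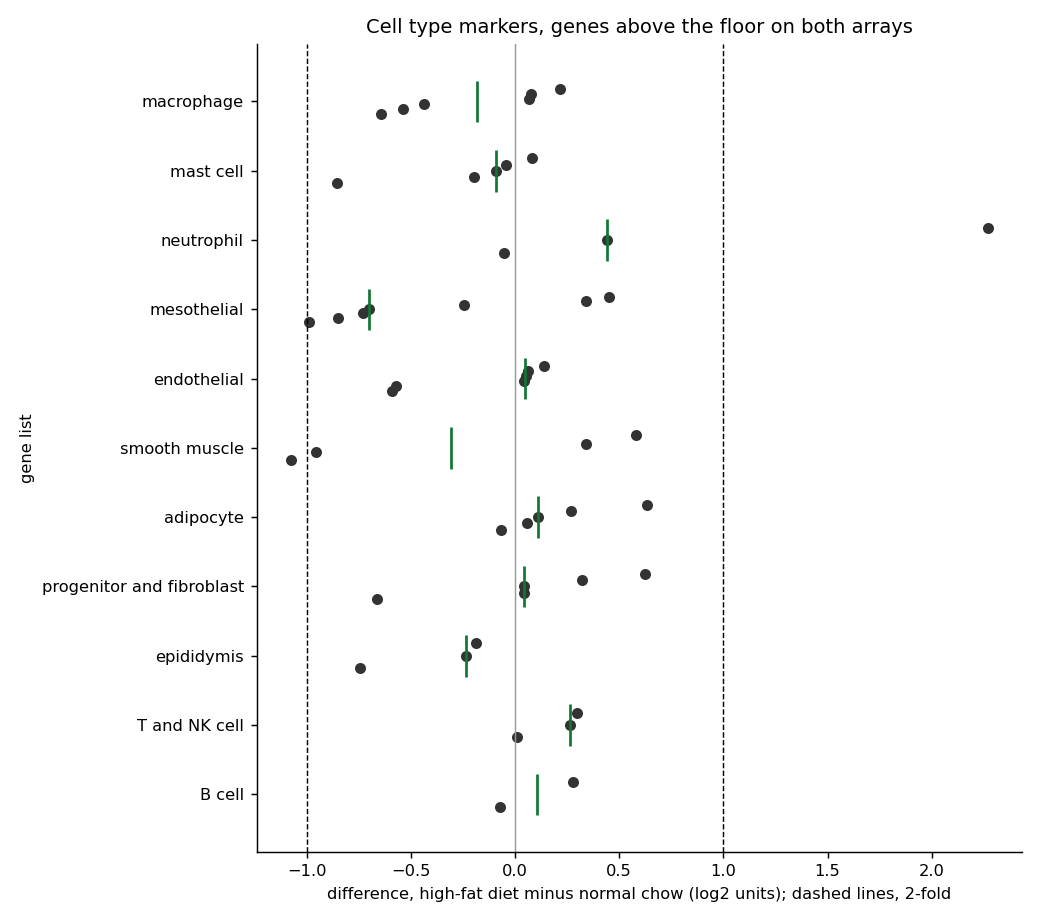
Difference of cell type markers above the floor on both arrays, high-fat diet minus chow in log2 units, by list; short vertical lines are medians and dashed lines 2-fold. Mesothelial markers have a median of -0.70, adipocyte markers one of 0.11 and macrophage markers one of -0.18.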

How the data were processed

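Per the labels' protocols, 10 µg of Trizol-extracted RNA was biotin-labelled for an Affymetrix array. The authors' deposited values are linear intensities, 1 for each probe set on each array. Their summary algorithm and scaling were not given in the sources used here. Means after trimming 2% at each end were 99.6 on both arrays, so each array may have been scaled to one target, which would hide a shift of total RNA. Intensities were used as deposited, values under the floor were raised to it, and log2 differences were taken with pandas 2.3.3 and numpy 2.4.6. Gene symbols came from the platform's annotation of 2016: 34945 had 1 symbol, 932 several and 9160 none. With 1 array per diet no test was made, and the number of arrays limits the precision. The calculation of the error yardstick was run on simulated data in which all probe sets had the same scatter. That checks the arithmetic and not how well the yardstick suits these arrays.

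The named genes are all members with all their probe sets, pathway genes 1.5-fold or more different, and the enzymes and receptors acting on a member's product. Up to 4 markers a list were planned, and more are named for adipocytes, neutrophils and the epididymis. Mgst3 and Cmklr1 were added because their probe sets differ in sign, and Cbr1 because its difference was small. Members and lists were chosen with earlier results of these data known. With 1 difference per gene, no gene was named for a pattern like a member's. There were 10 alternative settings for the floor, scale, probe set and pseudocount of 16.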

Additional observations from a re-analysis of the deposited data

How the results depend on the processing

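None of the 8 measured members and of 8 other pathway genes (Prxl2b, Ltc4s, Ggt5, Pla2g2e, Ptgfr, Ptger2, Cysltr1 and Alox15) changed sign under any of the 10 alternatives that gave it a value. For Ptgs2, whose high-fat value is under the floor, the sign carries no information. For a gene with 1 measured probe set, the settings on the choice of probe set could not change its value. The median difference of the 7 members lay between -0.36 and -0.27. The count of members 2-fold or more higher was 1, and 0 with the mean of all probe sets, with the probe set of smallest difference and with plain probe sets only. Each of these brings in the other probe set of Ptger3, whose difference is a bound. Among the other pathway genes 3 were 2-fold or more different, Pla2g2e with its bound included. This count was 1 under quantile normalization and under lowess centring, where Prxl2b and Ggt5 lie close to the threshold. The count of members 1.5-fold or more lower was 2, 1 in 5 alternatives and 0 with the pseudocount. The mesothelial median was -0.25 with the floor at the 60th percentile and -0.35 when each gene took its least different probe set, and the smooth muscle median was -0.95 with the floor at the 20th. Over the 14066 measured genes, which include those above the floor on 1 array only, 163 were 2-fold or more higher and 187 lower. These counts were 598 and 713 with the floor at the 20th percentile, 88 and 65 at the 60th, and 124 and 251 when centred on 11 reference genes, whose median difference was 0.07. No paired analysis was possible because each diet has 1 array. Values near the floor, as for Ptgs2, Ptger2, Ptgfr and the weaker probe sets of Ptges and Ptger3, limit what can be read.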
